A study of Homo sapiens with 4 samples.

Results

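The baseline transcriptome of HT-29 cells was taken from the 2 control libraries of a series of 4. HT-29 is an established human colorectal adenocarcinoma line, microsatellite stable, with a BRAF mutation and truncated APC alleles. The cells carried a lentiviral, doxycycline (DOX)-inducible non-silencing shRNA (NonS), which has no intended target. They had received 500 ng/ml DOX for 72 h and were at passages 3 to 5. The other 2 libraries, from cells with an inducible shRNA against APC and the same DOX dose and time, enter no result here. A line of transduced cells in monoculture is a model of tumour epithelium without stroma, vessels or immune cells, and both groups of the series share the vector and the DOX, so no library shows HT-29 cells without them. Biological duplicates of RNA-Seq are named NonS I and NonS II, and pairs of values stand in that order throughout.

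The deposited tables hold 1 whole number for each of 19729 genes and library. A gene was counted as on when its value was at least 10 in both NonS libraries, and 5144 of 19729 genes (26.1%) were on. Another 7382 genes (37.4%) were listed at 0 in both, and the remaining 7203 genes (36.5%) lay between, with a value above 0 in at least 1 library but under 10 in at least 1. These values summed to 398338 and 411112, and those of all 4 libraries to between 398338 and 413595. They vary less between duplicates than read counts would and behave as values per kb of transcript, so depth in reads is unknown, no counting interval is given, and a level of 0 means only a listing at 0. A level is an average over the culture, in which fewer cells of a type and less RNA per cell cannot be told apart.

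Colonic epithelium is renewed from stem cells at the crypt base, which depend on Wnt signaling. Their daughters become absorptive enterocytes or secretory cells, which include mucus-making goblet cells, hormone-making enteroendocrine cells and tuft cells, while antimicrobial Paneth cells belong mainly to the small intestine. Transcription factors such as CDX2 and HNF4A hold intestinal identity, and keratins, cadherins and claudins build the epithelial sheet. Colorectal cancer cells keep parts of these programs and alter them through APC, RAS, RAF and TGF-beta pathway mutations, and most run a high rate of glycolysis.

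Of 5 markers that name colon epithelial cells, 4 were on and 1 was listed at 0. KRT18 and KRT8, the keratin pair of simple epithelia, stood at 1550 and 1796 and at 1202 and 1531. EPCAM, an epithelial adhesion molecule on chromosome 2 (GRCh38 chr2:47345158-47387601), stood at 201 and 183. CEACAM5, the carcinoembryonic antigen, stood at 10 and 11, at the edge of the threshold. Its exons share 544 bases on the same strand with AC243967.1 (8 and 8), so reads of the 2 may be split and its level is uncertain. CDX2 (chr13:27962137-27971139) was listed at 0 in both libraries, against its use as a colon marker. The label of an epithelial cell line is therefore borne out by keratins and EPCAM. Colon identity is not borne out by CDX2, and CEACAM5 at the edge of the threshold adds little to it.

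Start sites of genes at both ends of the range are shown first, to put letters to the names that follow. RefSeq promoters (GRCh38.p14) were matched by symbol, and the 8 printed here run from 60 bases before the start site to 20 bases from it on, on the gene's own strand. Only 11201 of the 19729 genes (56.8%) had a promoter in the table, which is too few for any share by expression level, so none is given. The first 4 belong to genes of the translation and actin machinery among the 16 highest of all, with capitals on an unbroken run of at least 6 pyrimidines (C or T) that reaches to within 10 bases of the start, which 31.4% of all 22114 promoters in the table hold.
RPL13A (chr19:49487548-49487627, plus strand): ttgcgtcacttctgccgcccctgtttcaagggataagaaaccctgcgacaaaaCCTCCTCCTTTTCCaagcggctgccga
RPS18 (chr6:33272015-33272094, plus strand): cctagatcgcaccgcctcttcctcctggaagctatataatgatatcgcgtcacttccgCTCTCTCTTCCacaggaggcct
EEF1A1 (chr6:73521013-73521092, minus strand): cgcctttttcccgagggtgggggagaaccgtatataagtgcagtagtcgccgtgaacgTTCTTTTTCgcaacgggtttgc
TMSB10 (chr2:84905596-84905675, plus strand): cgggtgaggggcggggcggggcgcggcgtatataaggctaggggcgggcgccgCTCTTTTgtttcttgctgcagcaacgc

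The next 3 belong to a calcium-binding protein, an intestinal lectin and a glucose transporter, with capitals on TATAA, the core of the TATA box, between 40 and 16 bases before the start. On the gene's own strand 4.62% of all promoters in the table hold these letters in that window, and 22.2% hold them anywhere in the 300 bases on either strand. The marks do not set these genes apart from the first 4: RPS18, EEF1A1 and TMSB10 also hold TATAA in that window, and S100A6, LGALS4 and SLC2A1 also hold a run of at least 6 pyrimidines that reaches to within 10 bases of the start. CDX2, listed at 0, is shown without capitals because neither mark was found.
S100A6 (chr1:153535972-153536051, minus strand): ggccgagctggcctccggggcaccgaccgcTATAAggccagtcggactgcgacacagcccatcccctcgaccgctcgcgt
LGALS4 (chr19:38812926-38813005, minus strand): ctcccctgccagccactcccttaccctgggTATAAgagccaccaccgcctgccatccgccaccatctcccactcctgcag
SLC2A1 (chr1:42958849-42958928, minus strand): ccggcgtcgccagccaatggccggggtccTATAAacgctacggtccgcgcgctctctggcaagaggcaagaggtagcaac
CDX2 (chr13:27969296-27969375, minus strand): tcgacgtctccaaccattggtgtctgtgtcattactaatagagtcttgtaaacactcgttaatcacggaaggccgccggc

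The highest genes of the profile were those of the mitochondrial genome and of the ribosome. All 13 protein genes of the mitochondrial genome were among the 50 highest, with 22 cytosolic ribosomal protein genes and 15 others. The highest was MT-CO2, a subunit of cytochrome c oxidase, at 14594 and 15915, followed by MT-ATP6 (13213 and 13662), a subunit of ATP synthase, and MT-CO3 (12010 and 12476) and MT-CO1 (9590 and 10721), also of cytochrome c oxidase. Together the 13 genes held 18.5% and 19.1% of the summed values. The 86 cytosolic ribosomal protein genes held 13.9% and 13.5%, with 83 of them on and none at 0. These shares depend on the scale of the values. With mean values multiplied by the length of the longest transcript, the 13 genes held 6.85% of the sum and the 86 genes 9.95%. RPL13A, of the large ribosomal subunit, was the highest nuclear gene at 3408 and 3504. Many ribosomal protein genes and EEF1A1 have near-identical processed copies, so their levels are uncertain where reads could be split.

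Among the 15 others were genes of the cytoskeleton, of translation, of iron storage and of glycolysis. TMSB10, an actin monomer-binding peptide, stood at 2427 and 3038. The translation elongation factor EEF1A1 stood at 2550 and 2495. FTL, the light chain of the iron store ferritin, stood at 2473 and 2377. S100A6 and S100A4, calcium-binding proteins of the S100 family, stood at 2019 and 3015 and at 1437 and 2201. The remaining 10 included GAPDH, EEF1G, KRT18, KRT8, ACTB, PKM and ENO1. Also among them were MTRNR2L12 (1582 and 1208), which is nearly identical to a mitochondrial ribosomal RNA gene, and AC090498.1 (1067 and 1256), a pseudogene 75 bases long, and both are uncertain because reads may come from their parent sequences. EEF1G is uncertain too, since its exons share 2714 bases on the same strand with AP002990.1.

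**Figure D1:**
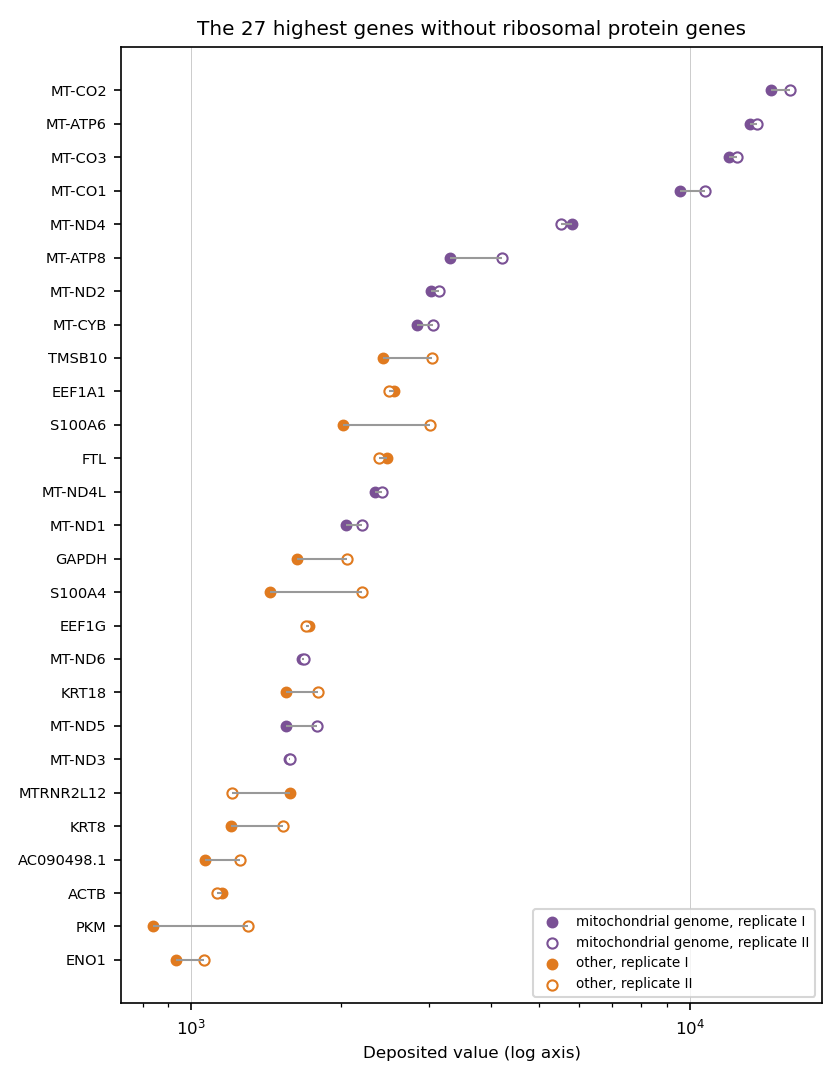
Values of the 27 genes with the highest mean of the NonS libraries when ribosomal protein genes are left out, on a log axis, with a filled point for NonS I and an open point for NonS II joined by a line, coloured by gene class. Genes of the mitochondrial genome take the first 8 places of those plotted, and MT-CO2 lies at 14594 and 15915.

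The profile was concentrated in few genes. The single highest gene held 3.66% and 3.87% of the summed values, the 10 highest 17.8% and 18.3%, the 50 highest 32.5% and 33.5%, and the 500 highest 58.4% and 60.2%. Among genes on, the median of the mean value was 24.5, with quartiles of 15.5 and 46.0, against 2 over all genes. A mean of at least 100 was reached by 515 genes, and a mean of at least 1000 by 44. When values were multiplied by the length of the longest transcript, the 50 genes held 18.7% of the sum, and 34 of the 50 remained among the 50 highest.

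The order of these levels is firm only in part. Of the 49 neighbouring pairs among the 50 highest genes, 8 had values that did not overlap between the duplicates, among them the steps from MT-CO2 down to MT-ATP8, and the other 41 neighbours could not be separated. Over the genes on, log2 values of the duplicates were correlated across genes with r = 0.974 and rho = 0.949, where genes are not independent replicates. The larger value was a median of 1.1 times the smaller, and 1.35 times at the 90th percentile. Of the genes on, 268 (5.21%) differed over 1.5-fold between the duplicates and 73 (1.42%) over 2-fold. With 1 group of 2 libraries these differences show the spread between duplicates, and no gene was tested.

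Among the 1177 genes on with a mean of at least 50, the 5 with the highest ratio of NonS II to NonS I are each known to be induced by interferon, though no list of interferon genes was examined. IFI6, an interferon-induced mitochondrial protein, stood at 53 and 413, a ratio of 7.79. IFI27 stood at 82 and 500, IFITM3, an antiviral membrane protein, at 20 and 105, OAS3, an antiviral synthetase, at 27 and 88, and ISG15, a ubiquitin-like modifier, at 158 and 510. In the opposite direction stood CSE1L (126 and 41) and IPO7 (76 and 33), which move proteins across the nuclear envelope, EIF3E (221 and 90), a translation initiation subunit, CBX3 (86 and 38), a heterochromatin protein, and TMEM123 (107 and 48). These are the extremes of both directions and were chosen by their ratio. What sets the duplicates apart was not tested.

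Close to the threshold the split is fine-grained. The lower of the 2 values was exactly 10 for 362 genes on, such as SKAP2, AGK, USP28, SPEN and CDK13, all at 10 and 10. It was exactly 9 for 357 genes outside, such as POF1B (32 and 9), PAPOLA (23 and 9), MRPL1 (22 and 9), EMC2 (21 and 9) and PRPF4B (21 and 9). In all, 691 genes were at 10 or more in only 1 of the libraries.

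Genes every cell uses were present. In 4 families of core machinery, namely RNA polymerase II subunits, CCT chaperonin subunits, proteasome core and base subunits and cytosolic tRNA synthetases, 57 of 58 genes were on and none was at 0. The exception was POLR2F, an RNA polymerase subunit, at 9 and 9. All 12 genes of a list of common reference genes were on, from GAPDH (1632 and 2055) down to TBP, the TATA-binding protein, at 10 and 10.

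Other cell types left little trace. Of 65 markers of stromal, endothelial, leukocyte, neuronal and glial, and liver, stomach and squamous cells, 54 (83.1%) were at 0, 9 were between and 2 were on, beside 37.4% at 0 and 26.1% on over all genes. Their values summed to 66 and 84. VIM, the intermediate filament of mesenchymal cells, was at 0 in both libraries, as were COL1A1, FN1, CDH2, ZEB1 and ZEB2, which mark mesenchyme or its transition. PTPRC, the pan-leukocyte phosphatase, PECAM1 and CDH5 of endothelium, and ALB of liver were also at 0. The 2 on were ESAM, an adhesion molecule of endothelium, at 14 and 19, and SERPINA1, a protease inhibitor best known from liver, at 38 and 46. Receptors of smell and hair proteins behaved alike: 346 of 353 olfactory receptors and 91 of 94 keratin-associated proteins were at 0 and none was on.

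Intestinal transcription factors were a mixed group. Of 23, 10 (43.5%) were on, 8 between and 5 (21.7%) at 0, beside 26.1% on and 37.4% at 0 over all genes. Their median level was 8.5. KLF5, a zinc finger factor of crypt cells, was highest at 100 and 88, and EHF, an epithelial ETS factor, followed at 60 and 48. PPARG, a lipid-sensing nuclear receptor, stood at 34 and 36, ELF3, another ETS factor, at 33 and 36, SOX9, a factor of crypt progenitors, at 34 and 34, and FOXA1, a pioneer factor, at 35 and 32. HNF4A, a nuclear receptor of enterocytes, stood at 19 and 17. In contrast, CDX2, GATA4, GATA5 and ISX were among those at 0, and CDX1, the relative of CDX2, was at 2 and 2. Transcription factors are often made at low levels, and TCF7L2, which brings beta-catenin to Wnt targets, was at the edge with 10 and 10.

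Of 39 HOX genes, which record position along the gut, 10 (25.6%) were on, near the 26.1% of all genes. Of 10 HOXB genes listed, 6 were on, and of 11 HOXA genes 4 were on, while none of 9 HOXC or 9 HOXD genes was. HOXB9 was highest at 104 and 98, then HOXB6 (43 and 46), HOXB7 (28 and 32) and HOXA10 (28 and 27). HOXA13, a factor of the hindgut, stood at 13 and 12, whereas HOXB13, its HOXB counterpart, stood at 2 and 2. All 9 HOXD genes were at 0.

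Genes of the epithelial sheet were mostly on: 18 of 25 keratin, cadherin and junction genes (72.0%), beside 26.1% of all genes. At 0 was 1 (4.0%), beside 37.4% of all genes. Beside KRT18 and KRT8 came KRT19 (539 and 836), a simple-epithelium keratin, and KRT20 (180 and 266), the keratin of differentiated intestinal cells, while KRT7, usually low in colon cancer, was at 3 and 5. Only 6 of all 55 keratin genes (10.9%) were on and 37 (67.3%) were at 0. KRT18 and KRT8 are neighbours on chromosome 12 on opposite strands, and their exons share 525 bases. CDH1, the epithelial cadherin, stood at 98 and 119 and JUP, its linker plakoglobin, at 119 and 132. The tight junction proteins CLDN4 (101 and 125), CLDN3 (78 and 104), CLDN7 (79 and 95) and CLDN2 (36 and 38) were on, whereas CDH17, the intestinal cadherin, was at 1 and 2 and CLDN18, the stomach claudin, at 0. Of 20 S100 genes 8 were on, and the family held 1.24% and 1.72% of the summed values, S100A11 (605 and 788) and S100A10 (486 and 587) following S100A6 and S100A4.

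**Figure D2:**
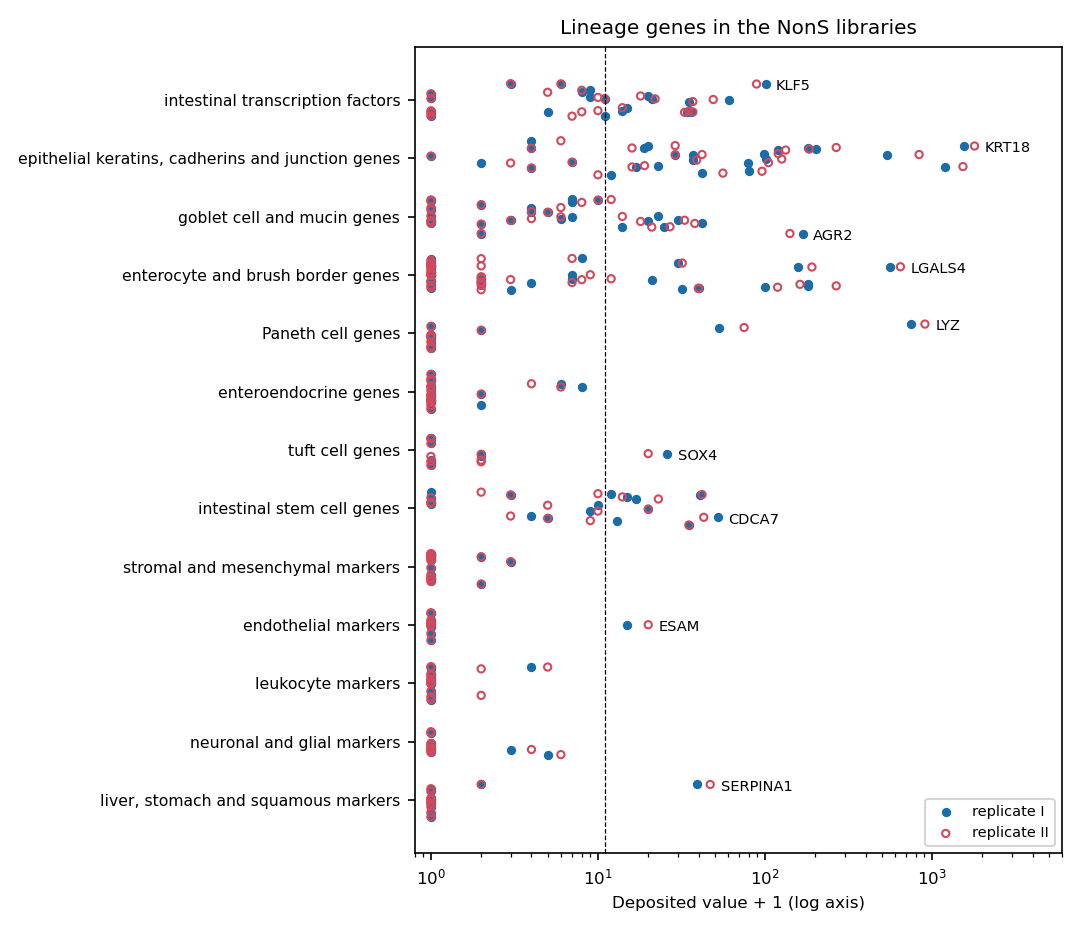
Value + 1 of each member of 13 lineage lists in NonS I (filled) and NonS II (open), on a log axis, with a dashed line at the threshold of 10, the name of the highest member where its mean is at least 10, and points spread vertically only for sight. Junction genes lie mostly to the right of the line, and stromal, leukocyte, neuronal and enteroendocrine genes to its left.

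Enterocyte genes were on in part. Of 38, 8 were on, 14 between and 16 at 0, a share on of 21.1% beside 26.1% over all genes. LGALS4, a lectin of the intestinal surface that sorts glycoproteins to the apical membrane, was highest at 557 and 646. KRT20 followed, then EZR, the linker of the brush border membrane to actin, at 157 and 190, TSPAN8, a tetraspanin, at 179 and 161, and CEACAM1, an adhesion molecule, at 99 and 118. VIL1, the bundler of microvillus actin, stood at 29 and 31, and USH1C, of the links between microvilli, at 31 and 39. PLS1, another bundler of microvillus actin, stood at 20 and 7, and the brush border genes CDHR5, MYO7B and MYO1A at 3 and 6, 1 and 2, and 1 and 1. SI (sucrase-isomaltase), LCT (lactase), ALPI (intestinal alkaline phosphatase), ANPEP (aminopeptidase N), SLC26A3 (the chloride and bicarbonate exchanger of the colon), APOA1, APOA4, APOB, FABP2, CA1, CA4, AQP8, GUCY2C, CDHR2, MEP1A and SLC15A1 were at 0 in both libraries.

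Of 27 goblet cell and mucin genes listed, 7 (25.9%) were on and 8 (29.6%) at 0, a share on near the 26.1% of all genes, and 11 were on at a threshold of 5. AGR2, a disulfide isomerase needed for mucin folding, stood at 167 and 140, CREB3L1, a factor of the secretory pathway, at 41 and 37, SPDEF, a goblet cell factor, at 24 and 26, and TFF3, the goblet trefoil peptide, at 19 and 17. MUC13, a membrane mucin, stood at 29 and 32 and MUC20 at 13 and 20, and MUC20 shares 1820 bases on the same strand with MUC20-OT1. MUC5AC, the gastric gel mucin, was at 3 and 4, ATOH1, the master factor of secretory cells, at 6 and 7, and MUC4, MUC5B, MUC6, MUC12, MUC17, CLCA1, ZG16 and ITLN1 at 0. MUC2 was not analysed here.

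Paneth and enteroendocrine lists were mostly at 0, with 7 of 10 genes (70.0%) and 14 of 18 (77.8%), beside 37.4% of all genes. LYZ, the antimicrobial enzyme lysozyme, stood at 749 and 906 and ranked 54th of all genes, and MMP7, the matrix protease that activates defensins in mice, stood at 52 and 74. The other defining Paneth genes, DEFA5, DEFA6, REG1A, REG3A, REG3G, ITLN2 and PLA2G2A, were at 0. LYZ shares 599 bases with an antisense gene, AC020656.1. None of 18 enteroendocrine genes was on and 14 were at 0, CHGA (chromogranin A), GCG (glucagon precursor), PYY, SST, CCK and NEUROD1 among them, although the lineage factor NEUROG3 was at 7 and 5. Of 10 tuft cell genes, 1 was on, SOX4 (25 and 19), which many cell types express, while DCLK1, TRPM5, GFI1B, HPGDS and IL25 were at 0.

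Stem cell genes were on for 6 of 18 (33.3%), with 4 (22.2%) at 0, beside 26.1% and 37.4% of all genes. CDCA7, a chromatin factor, stood at 51 and 42, CD44, a hyaluronan receptor, at 40 and 41, PROM1, a surface marker also called CD133, at 19 and 19, and PTK7, a Wnt co-receptor, at 14 and 13. LGR5, the R-spondin receptor that marks crypt base stem cells, stood at 3 and 2, ASCL2, a stem cell factor, at 4 and 4, and OLFM4, SMOC2, TNFRSF19 and MSI1 at 0. Of pluripotency and oncofetal genes 3 of 16 (18.8%) were on. HMGA1, a chromatin protein of fetal and tumour cells, stood at 506 and 465, and its relative HMGA2 at 1 and 1, while LIN28A, LIN28B, SOX2, PRAME, IGF2BP1, MAGEA6 and PEG10 were at 0. Of the X-linked MAGE, GAGE and XAGE tumour antigens 42 of 44 were at 0.

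Of 38 genes of secreted proteins and peptides, 19 were on and 8 at 0, beside 26.1% on and 37.4% at 0 over all genes. This list is among those whose count of genes on changed by more than 1.5 times at a threshold of 20. KLK6 and KLK10, tissue kallikrein proteases, stood at 147 and 212 and at 54 and 90. LCN2, an iron-chelating lipocalin, stood at 70 and 102 and SERPINB1, a mainly intracellular elastase inhibitor, at 91 and 108. Since the list also holds such genes and the receptor gene PLAUR, its counts are not counts of secreted products alone. Of growth factor genes, AREG, a ligand of EGFR, stood at 89 and 73, EREG at 18 and 12, TGFA at 10 and 12, VEGFA, the vessel growth factor, at 29 and 32 and MDK, midkine, at 28 and 35. Inflammatory cytokines and chemokines lay near 0: CXCL8 was at 1 and 2, CXCL1 at 1 and 2, CCL20 at 0 and 1, and IL6, IL1A and CCL2 at 0. A family of 70 genes was matched by interferon and interleukin names and holds only some of the receptors. In it only IL4R, the receptor for IL-4, was on, at 16 and 19, and 54 were at 0. Over all genes 26.1% were on and 37.4% at 0. Receptors outside this family were not examined as a group.

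Metabolic lists stood high against the 26.1% of all genes on. Glycolysis and lactate genes were on for 20 of 23, with a median level of 99.5. After GAPDH came PKM, the pyruvate kinase gene, at 840 and 1302, ENO1, enolase, at 935 and 1061, LDHA, the lactate dehydrogenase of the muscle type, at 400 and 706, and TPI1, triose phosphate isomerase, at 443 and 594. SLC2A1, the glucose transporter GLUT1, stood at 197 and 250 and the neuronal transporter gene SLC2A3 at 0. CA9, a hypoxia-inducible carbonic anhydrase, stood at 58 and 141, and the lactate exporter SLC16A3 at 12 and 30. In 16 of the 20 genes on the value was higher in NonS II and in 4 in NonS I. Over 1.5-fold higher in NonS II were 7 of the 20, beside 108 of all 5144 genes on. None of the 20 was over 1.5-fold higher in NonS I, beside 160 of all genes on. Of all 5144 genes on, 2460 (47.8%) were higher in NonS II and 2013 in NonS I. GAPDH and CA9 share 422 and 643 bases with genes on the opposite strand.

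Of gluconeogenesis and glycogen genes 6 of 10 were on, led by the glycogen phosphorylase PYGB (242 and 324) and fructose bisphosphatase FBP1 (50 and 56), and PCK1 and G6PC, of liver gluconeogenesis, were at 0. Tricarboxylic acid cycle genes were on for 21 of 24, none at 0, with a median level of 38.75. SDHA, of succinate dehydrogenase, was highest at 148 and 160, then MDH2 (malate dehydrogenase) at 120 and 115 and CS (citrate synthase) at 96 and 76. SUCLA2, of succinyl-CoA synthetase, was between at 12 and 4. Fatty acid oxidation genes were on for 12 of 16, ECHS1 (111 and 110) and ACADVL (88 and 112) highest, and the coactivator PPARGC1A at 0.

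Fatty acid and cholesterol synthesis genes were on for 22 of 27. SCD, the stearoyl-CoA desaturase, was highest but differed between duplicates at 273 and 588, and its regulator SREBF1 stood at 39 and 80. Cholesterol enzymes were closer between duplicates: FDPS stood at 134 and 139 and SQLE at 137 and 103. FASN, the fatty acid synthase, stood at 83 and 113. The desaturases and elongases of polyunsaturated fats stood out at the other end, with FADS2 and ELOVL5 at 0 and FADS1 at 0 and 1.

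Amino acid and one-carbon genes were on for 20 of 25 and nucleotide synthesis genes for 16 of 19. SLC1A5, the glutamine carrier, stood at 289 and 311, ODC1, the first enzyme of polyamine synthesis, at 135 and 97, SHMT2, of mitochondrial one-carbon metabolism, at 93 and 104, ALDH18A1 at 85 and 90 and GOT2 at 87 and 69. CBS, of transsulfuration, was at 0. TK1, thymidine kinase, stood at 139 and 137, IMPDH2, of guanine synthesis, at 127 and 113, RRM1, of ribonucleotide reductase, at 78 and 66, PAICS at 72 and 59, and TYMS, the target of fluorouracil, at 69 and 62. In 13 of the 16 nucleotide synthesis genes on the value was higher in NonS I, and in none in NonS II, but none differed over 1.5-fold. Over all 5144 genes on, 2013 were higher in NonS I and 2460 in NonS II.

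Drug metabolism and antioxidant genes were on for 21 of 37 (56.8%) and at 0 for 6 (16.2%), beside 26.1% and 37.4% of all genes. GSTP1, a glutathione transferase, stood at 643 and 733, GPX2, the gastrointestinal glutathione peroxidase, at 665 and 603, TXN, thioredoxin, at 421 and 409, PRDX1, a peroxiredoxin, at 343 and 338, and ALDH1A1, a retinaldehyde dehydrogenase, at 279 and 220. NQO1, a quinone reductase, stood at 156 and 179. The drug pump gene ABCB1, CYP1A1, CYP2J2, UGT2B17, GSTA1 and ABCC2 were at 0, while the pumps ABCC3 (81 and 98), ABCC1 (17 and 17) and ABCG2 (12 and 10) were on. The UGT1A genes share exons, so UGT1A10 (38 and 43) and UGT1A6 (11 and 12) are uncertain.

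Of 27 genes of the RAS, RAF and MAPK pathway, 16 (59.3%) were on and 4 (14.8%) at 0, beside 26.1% and 37.4% of all genes. Among the receptors, ERBB3, a partner receptor of the EGFR family, stood at 46 and 61, MET, the receptor for hepatocyte growth factor, at 51 and 47, and ERBB2 at 37 and 47, while EGFR was at 9 and 11. FGFR1, KIT, PDGFRA and ERBB4 were at 0. Of the RAS genes, HRAS stood at 45 and 49 and NRAS at 17 and 11. Of the RAF kinases, ARAF stood at 23 and 25 and BRAF, mutated in this line, at 3 and 2. BRAF shares 1239 bases with NDUFB2 on the opposite strand. The MEK genes MAP2K2 and MAP2K1 stood at 42 and 54 and at 31 and 38, and the ERK gene MAPK3 at 19 and 23.

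Targets of ERK signaling were on for 10 of 18 (55.6%), beside 26.1% of all genes, and for 16 at a threshold of 5. MYC, the growth-promoting factor, stood at 114 and 89, EPHA2, an ephrin receptor, at 53 and 58, IER3 at 43 and 58, ETV4, an ETS factor, at 36 and 40 and CCND1, cyclin D1, at 28 and 26. DUSP6, the ERK phosphatase, stood at 16 and 16, and SPRY2, a feedback inhibitor, at 8 and 7, while EPHA4 was at 0. PI3K, AKT and mTOR genes were on for 7 of 21 (33.3%), and for 14 at a threshold of 5, with RHEB, the GTPase that activates mTOR, highest at 61 and 62, followed by EIF4EBP1 (43 and 36), AKT2 (35 and 35) and AKT1 (33 and 36). The catalytic subunit gene PIK3CA stood at 2 and 1 and PIK3CG at 0.

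Wnt pathway genes were on for 16 of 28 (57.1%) and at 0 for 4 (14.3%), beside 26.1% and 37.4% of all genes. The co-receptor LRP5 stood at 69 and 83, and the receptor-removing ubiquitin ligases RNF43 and ZNRF3 at 31 and 33 and at 13 and 15. CTNNB1, which encodes beta-catenin, stood at 44 and 45, and its destruction complex members GSK3A at 34 and 35, GSK3B at 12 and 11, CSNK1A1 at 25 and 23 and AXIN1 at 24 and 29. APC, the scaffold that is truncated in this line and the target of the shRNA in the other libraries, stood at 3 and 0, a level too low to resolve, and its exons share 230 bases on the same strand with AC008575.1. Of feedback targets, AXIN2 stood at 16 and 22 and shares 1316 bases on the same strand with AC004805.1, DKK1 stood at 15 and 17, SP5 at 3 and 4, NOTUM at 1 and 1 and NKD1 at 0. Of the nuclear factors, TCF7 stood at 12 and 13, whereas LEF1 and TCF7L1 were at 0, like the secreted inhibitor WIF1.

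TGF-beta and BMP genes were on for 6 of 25, near the 26.1% of all genes. BMP4, a ligand, stood well apart at 146 and 180, beside BMP2 at 3 and 4 and BMP7 at 0. ID1 and ID2, targets of BMP signaling, stood at 50 and 65 and at 24 and 24, while ID3 was at 0. The receptor TGFBR2 stood at 24 and 26, TGFBR1 at 2 and 2, the effector SMAD3 at 17 and 22, SMAD2 at 2 and 2, and SMAD4, the common SMAD, at 1 and 1. SMAD4 lies on chromosome 18 and shares 967 bases on the same strand with AC091551.1, so its level is uncertain. The ligands TGFB2 and TGFB3 were at 0. Notch genes were on for 3 of 15, and for 5 at a threshold of 5, HES6 (34 and 33), HES1 (27 and 27) and NRARP (12 and 10), which are targets or relatives of targets. The receptor NOTCH1 stood at 9 and 8 and NOTCH2 at 6 and 6, and NOTCH3, NOTCH4, DLL3 and HEY1 were at 0.

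Cell cycle and repair genes were on for 22 of 35 (62.9%), beside 26.1% of all genes. PCNA, the replication clamp, stood at 150 and 144, CCNB1, cyclin B1, at 104 and 98, CDK4 at 78 and 71, MCM2, of the replicative helicase, at 73 and 70 and PLK1, a mitotic kinase, at 51 and 52. TOP2A, the topoisomerase of dividing cells, differed between duplicates at 73 and 16, as did MKI67 (45 and 25) and CDK1 (40 and 22). In 15 of the 22 genes on the value was higher in NonS I and in 5 in NonS II. Of all 5144 genes on, 2013 were higher in NonS I and 2460 in NonS II. CDKN1A, an inhibitor of cyclin-dependent kinases, stood at 6 and 11, and MDM2, a ubiquitin ligase, at 4 and 4. The mismatch repair genes MSH6 (12 and 12) and PMS2 (15 and 14) were on, and CCND2 was at 0. TYMS shares 967 bases with a gene on the opposite strand.

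Survival genes were on for 10 of 23 (43.5%), beside 26.1% of all genes. BCL2L1, which encodes the survival protein BCL-XL, stood at 113 and 148, BAX, its pro-death relative, at 105 and 101, MCL1 at 55 and 57, BIRC5 (survivin) at 27 and 28 and TNFRSF10B, a death receptor, at 19 and 23. BCL2, BCL2A1, BIRC3 and TERT were at 0. BCL2L1 shares 1424 bases with the antisense gene ABALON.

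Antigen presentation genes were on for 10 of 24 (41.7%) and at 0 for 5 (20.8%), beside 26.1% and 37.4% of all genes. Of the 10, 5 were over 1.5-fold higher in NonS II, beside 108 of all 5144 genes on. B2M, the light chain of class I molecules, stood at 171 and 278, HLA-C at 84 and 173, HLA-E at 47 and 85 and HLA-B at 23 and 60. In NonS II these genes were higher together with ISG15, IFI6 and IFI27, and the part of an interferon response in the difference was not tested. HLA genes are highly similar to each other, so reads may be split between them. Class II genes HLA-DRA, HLA-DRB1 and HLA-DPA1 and the checkpoint ligands CD274 and PDCD1LG2 were at 0.

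The share of genes on differed by chromosome, counted for the autosomes and the X chromosome only. Of these, chromosome 20 had the highest share, 193 of 531 listed genes (36.4%), then chromosome 16 with 282 of 836 (33.7%). Chromosome 18 had the lowest, 39 of 266 (14.7%), below chromosome 4 with 116 of 744 (15.6%) and chromosome 21 with 37 of 231. Gene content differs between chromosomes, and no test was made. Genes on had a median longest transcript of 2988 bases, genes between of 3928 and genes at 0 of 2642.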

How the data were processed

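RNA-Seq libraries of HT-29 cells (poly(A)-selected, stranded kit, single reads of 50 bases) were made and processed by the authors: reads were quality filtered, trimmed of poly(A), mapped with TopHat2 to human assembly 38 and counted per gene with htseq-count on GENCODE v29, before DESeq2 1.4.1. The labels name hg19 instead, and the strand option is not given in the sources used here. The deposited tables give whole numbers by gene, treated here as a score whose scale is not stated: the variance between duplicates was 0.484 times that of counts in 4632 genes with summed values of 10 to 39, and value times longest transcript in kb summed to 980841 and 981013. The authors' comparison table (mean, fold change, p) was not used. Columns of per-sample values not used numbered 0.

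Values of the 2 NonS libraries were used as deposited, with no scaling and no test, with Python 3.11.15, pandas 2.3.3 and numpy 2.4.6. Positions, lengths and overlaps come from GENCODE v29 (GRCh38), which holds 19502 of the genes. Named genes were the 50 highest, the markers, for each list its 5 highest members, members at 0 and members described by role, and the 5 most different genes in each direction between duplicates. Members and the 34 gene lists were chosen with earlier results of these data known, and gene families after values were seen. The code for counting was checked on simulated counts and on made-up values with a known answer. This checks the code only, since the deposited values do not vary as counts do. Alternatives covered thresholds, scaling, length and each library left out. Some genes of these lists are counted in them but not reported by name.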

Additional observations from a re-analysis of the deposited data

How the results depend on the processing

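With a threshold of 20 in both libraries 2947 genes were on, and with a threshold of 1, which applies no filter on low values, 11838 were on, against 5144 at 10, since the count follows the threshold by construction. The share held by the 50 highest genes was 18.7% with values multiplied by transcript length against 33.0% as deposited. With 1 NonS library left out in turn, genes on ranged from 5405 to 5574, genes at 0 from 7595 to 7678, the share of the 50 highest genes from 32.5% to 33.5% and list genes on from 321 to 327. The other alternatives tried for these counts (a threshold of 5, a mean of at least 10, equal totals, median of ratios, protein-coding genes only) kept the count of genes on within 1.5 times, from 4906 to 7459. A threshold of 20 changed the count of genes on by more than 1.5 times in 12 of the 34 lists, and a threshold of 5 in 5 of them: goblet cell and mucin genes (7 to 11), ERK targets (10 to 16), PI3K, AKT and mTOR genes (7 to 14), Notch genes (3 to 5) and enteroendocrine genes (0 to 1). No paired analysis was possible because the results come from 1 group and no test. Depth in reads is unknown, values are rounded, and levels under 10 carry little resolution.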
